A study of Mus musculus with 4 samples.

Results

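Transcripts of 9 genes associated with tuft cells, Alox5, Alox5ap, Avil, Dclk1, Pou2f3, Trpm5, Sh2d6, Gfi1b and Plcb2, were examined in bulk RNA libraries of colonoid lines grown from mouse adenomas. They were chosen by name, with earlier results of these data known, and all 9 had a row among the 16857 genes of the expression table. G2 consisted of lines 157 and 236, labelled Apcnull/LSL-mTERT-homo. G0 consisted of lines 75 and 179, labelled Apcnull/LSL-mTERT-het. All 4 lines were named Apcmin and carried altered Apc, the Wnt pathway inhibitor lost in most intestinal adenomas, and each gave 1 library. The series sets colonoids of low chromosomal instability beside those of high instability, and the labels do not say which of these G0 and G2 are. A colonoid is an epithelial structure grown in culture from colon tissue, and the culture is meant to hold epithelial cells, tuft cells among them.

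Tuft cells are rare chemosensory cells of the gut epithelium. In the mouse they depend on the transcription factor Pou2f3, detect luminal signals through a taste-like cascade of phospholipase C and the channel Trpm5, carry a tall tuft of microvilli bundled by actin-binding proteins such as advillin, and release interleukin 25 and cysteinyl leukotrienes. The leukotrienes are made from arachidonic acid by 5-lipoxygenase, the product of Alox5, together with its activating protein FLAP, the product of Alox5ap.

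The 9 genes did not move as a unit. Alox5 was 20.5-fold lower in G2 than in G0, while Avil was 2.66-fold higher in G2, and these were the 2 members that passed the test. Dclk1 was detected in all 4 libraries without passing. Pou2f3 had no count in any library, and Gfi1b and Plcb2 had 1 count each in 4 libraries together, so the level of the defining tuft cell regulator was not detectable at this depth in any line, while Avil and Dclk1 had at least 42 counts in every line. The name "tuft cell genes" is therefore used here for the list and not for a cell population shown to be present.

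Levels are normalized counts, the authors' log2 values turned back into counts divided by library size factors. Library totals lay between 16545429 and 17901744 counts, and 3 counts, the limit that a count of 0 allows, equalled 2.93 to 3.05 normalized counts. Limits and counting intervals cover counting error only. Libraries of the same group were distinct, with a mean chi-square per gene of 24.3 in G2 and 33.0 in G0. Nothing in the labels says that lines came from separate mice, so the p-values cover line-to-line spread only. Tert, the telomerase gene altered by design, had 0.489 ± 0.691 normalized counts in G2 and 95.4 ± 3.0 in G0 (SD, n = 2 each). The Y-linked transcripts Ddx3y, Uty, Eif2s3y and Kdm5d had means of 315 to 524 normalized counts in G2 and a count of 0 in both G0 libraries, so the presence of Y transcripts and the group cannot be told apart for any gene below.

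Every adjusted p comes from a limma fit across 13981 genes, those averaging 1 normalized count or more, on log2(normalized count + 1), with Benjamini-Hochberg adjustment and a threshold of 0.05. Of the 9 members, 6 reached that mean and 3 (Pou2f3, Gfi1b and Plcb2) did not. Among the 6 tested, 1 was higher and 1 lower in G2, against a background of 10.5% of all genes tested that passed in either direction, 5.93% higher and 4.56% lower. The members and the further lists were chosen with earlier results of these data known. Their counts beside the background are therefore descriptions and not tests of the lists. The groups did not overlap for 5 of the 6, against 57.8% of all genes tested. The median log2 fold change of the 6 was 0.98, or 0.85 with Sh2d6 at its lower bound, against 0.01 for all genes tested. This median lay between the values of Dclk1 and Trpm5, neither of which passed. It was 0.63 with a pseudocount of 5 and 1.19 with a pseudocount of 0.5. Without G0 replicate 2 it was 0.40, and without G0 replicate 1 it was 1.225. Each call rested on having both lines of both groups. Leaving out any 1 library left 0 members past the threshold in limma, where 2 or 3 of the 6 had p below 0.05 before adjustment. Over all 13981 genes the same fits called 0, with 2376 to 3221 below 0.05 before adjustment. In an exact permutation test of a single gene, 2 lines against 2 cannot give a two-sided p under 0.333.

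**Figure D1:**
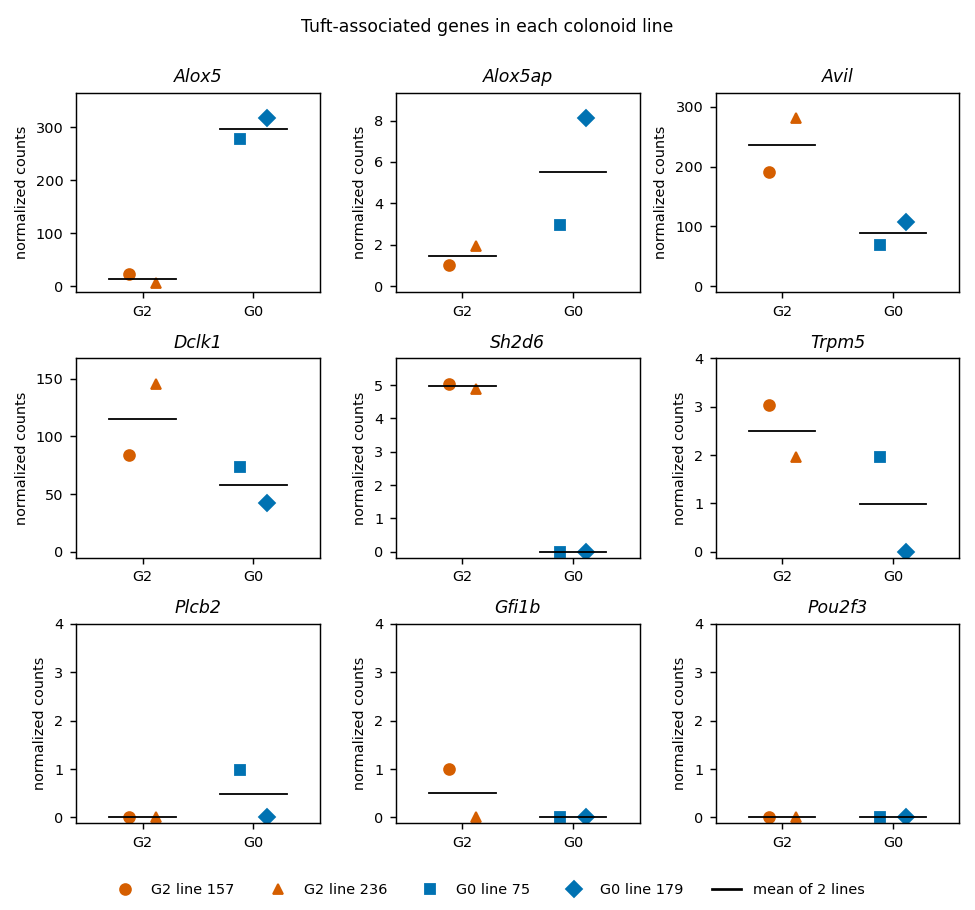
Normalized counts (vertical axes, including 0 and scaled per gene) of the 9 genes in each library, with G2 lines 157 and 236 in orange left of G0 lines 75 and 179 in blue and a black bar at each mean. Alox5 sits at 22.2 and 6.84 in G2 against 278 and 318 in G0, Avil shows the opposite order, and Pou2f3 lies at 0 throughout.

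Pou2f3, the POU-domain factor without which mouse tuft cells do not form, lies on chromosome 9 from 43123939 to 43210369 (GRCm38, minus strand) and had 0 counts in both G2 and both G0 libraries. It was among 1290 genes of the table (7.65%) with no count anywhere. Gfi1b, a zinc-finger repressor of tuft cells and of red cell and platelet precursors, lies on chromosome 2 from 28609450 to 28621982 and had 1 count in G2 line 157, 0 in G2 line 236 and 0 in both G0 lines. Neither gene allows a fold change, since all libraries stood below the floor of 3 counts.

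The taste-type signalling members were close to the floor as well. Plcb2, the phospholipase C isoform of taste receptor cells and leukocytes on chromosome 2 from 118707517 to 118728438, had 0 counts in both G2 lines, against 1 in G0 line 75 and 0 in G0 line 179. Trpm5, the calcium-activated cation channel that depolarises taste and tuft cells, lies on chromosome 7 from 143069153 to 143094642. It had 3 and 2 counts in G2 lines 157 and 236, against 2 and 0 in G0 lines 75 and 179, and the groups overlapped. Its log2 fold change of 1.002 had a standard error of 0.85 (limma adjusted p = 0.485), with a 95% interval from -1.002 to 3.01. The gene shares 220 of its 6398 exonic bases with Tssc4 on the opposite strand, which stood at 1101 to 1571 normalized counts, so its few counts are uncertain.

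Sh2d6, which encodes an SH2-domain protein used as a tuft cell marker, lies on chromosome 6 from 72513641 to 72521707. It had 5 counts in each G2 line (5.04 and 4.89 normalized counts), against 0 in both G0 lines. The G2 mean was at least 1.66-fold higher than the floor of 3 counts per library in G0. The groups did not overlap, but Sh2d6 missed the threshold (limma log2 fold change 2.58, SE 0.72, unadjusted p = 0.00938, adjusted p = 0.0692). It passed without a filter on low values (adjusted p = 0.00348) and without an intensity trend in the model (0.0138). A total of 10 counts carries this difference.

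The sequences before the starts of Alox5 and Avil are shown because these members passed the test in opposite directions. Each is the 250 bases ahead of the RefSeq start on GRCm38.p6, read 5′ to 3′ on the gene's strand, at chr6:116461179-116461428 on the minus strand for Alox5 and chr10:127000459-127000708 on the plus strand for Avil. Capitals mark a GC box.
Alox5: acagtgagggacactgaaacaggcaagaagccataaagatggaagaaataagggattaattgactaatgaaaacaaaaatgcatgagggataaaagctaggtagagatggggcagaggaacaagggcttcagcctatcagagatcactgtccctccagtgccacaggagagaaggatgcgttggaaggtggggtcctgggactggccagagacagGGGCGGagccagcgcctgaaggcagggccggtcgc
Avil: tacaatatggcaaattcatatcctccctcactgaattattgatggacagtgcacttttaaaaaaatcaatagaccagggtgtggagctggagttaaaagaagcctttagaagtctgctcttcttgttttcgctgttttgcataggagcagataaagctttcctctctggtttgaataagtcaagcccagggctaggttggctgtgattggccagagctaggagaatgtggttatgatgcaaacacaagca
Windows were found for 7 of the 9 members (Dclk1 with 2), and 3 motifs were searched on both strands: the octamer ATGCAAAT bound by POU factors, the GC box GGGCGG and the TATA box TATAAA. The octamer was in 0 of the 8 member windows and in 1.6% of all 32851 windows. A GC box stood in the Alox5 window, starting 35 bases before the start, and in that of Gfi1b, against 32.7% of all windows. TATAAA was in 0 of the 8 and in 12.4% of all. The Alox5 window was 52.8% G and C and the Avil window 42.0%, where the median of all windows was 52.4%. A match is a string of letters and not a site in use.

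Alox5 was the member with the largest difference. It encodes 5-lipoxygenase, which converts arachidonic acid to leukotriene A4, and lies on chromosome 6 from 116410077 to 116461178 on the minus strand. Alox5 had 22.2 and 6.84 normalized counts in G2 lines 157 and 236, against 278 and 318 in G0 lines 75 and 179. Both G2 lines lay far below both G0 lines, although the G2 lines themselves differed 3.24-fold and the G0 lines 1.14-fold. The means were 14.5 ± 10.9 in G2 and 298 ± 28 in G0 (SD, n = 2 each). Alox5 was thus 20.5-fold lower in G2, on 29 counts against 596, for which the 95% exact counting interval is 14.2 to 31.1. The log2 fold change was -4.47 with a standard error of 0.51 (limma adjusted p = 0.00359), lower than that of all but 0.243% of the genes tested. The fold depended on which G2 line was used: it was 43.5 without G2 replicate 1 (line 157) and 13.4 without G2 replicate 2 (line 236). Limma adjusted p was 0.119 and 0.139 in those fits, and 0.175 and 0.234 without G0 replicate 1 (line 75) or 2 (line 179). The call was also lost without a filter on low values (adjusted p = 0.128). No gene of the annotation overlaps Alox5, and its nearest neighbour March8 ends 536 bases away. In bulk libraries, fewer cells of a type and less RNA per cell cannot be told apart.

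Alox5ap encodes FLAP, the membrane protein that presents arachidonic acid to 5-lipoxygenase, and lies on chromosome 5 from 149264767 to 149288153. It had 1.01 and 1.95 normalized counts in G2, against 2.95 and 8.13 in G0. The G2 lines were below the G0 lines, in the same direction as Alox5, but at 3 counts in G2 and 11 in G0. The means differed 3.74-fold (counting interval 0.974 to 20.6), and the gene did not pass (log2 fold change -1.30, SE 0.73, limma adjusted p = 0.299). Alox5ap shares 189 of its 1420 exonic bases with the antisense gene Gm19719, so its few counts are uncertain. In G0 the lipoxygenase stood at 72.6 normalized counts per kb of exon and its partner at 3.90 per kb.

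Leukocytes also express Alox5, Alox5ap and Plcb2, so markers of blood cells were read beside them. Ptprc, the pan-leukocyte gene also found in a subset of tuft cells, and the integrin gene Itgam had 0 counts in all 4 libraries. Of 9 markers of macrophages and neutrophils 6 had a row, with summed levels of 3280 and 4120 normalized counts in G2 and 2121 and 3341 in G0, almost all from Cd14 and Cd68. Of these, 4 were tested, and 2 (Cd14 and Csf1r) were higher and 0 lower in G2, against 10.5% of all genes tested that passed in either direction. The more restricted macrophage gene Csf1r was at 16.1 and 4.89 in G2 and 0 in both G0 lines (limma adjusted p = 0.0431). Laptm5, also on the list, was at 7.06 and 23.5 in G2 and 0.982 and 1.02 in G0 without passing (adjusted p = 0.0550). Of 8 mast cell and basophil markers 3 had a row, summing to 13.1 and 21.5 in G2 and 2.95 and 3.05 in G0, with Kit making up almost all of the G2 sums. Kit was the 1 gene of these that was tested, and it was higher in G2 (limma adjusted p = 0.0104). Of 8 lymphocyte markers 2 had a row, summing to 3.03 and 1.95 in G2 and 0.982 and 2.03 in G0. The 9 markers of red cells and megakaryocytes summed to 151 and 44.0 in G2 and 22.6 and 24.4 in G0, mostly Ppbp in G2, with Gata1 and Hbb-bs at 0 throughout. The part of blood cells in the levels of Alox5, Alox5ap and Plcb2 was not tested.

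Avil was higher in G2. It encodes advillin, an actin-bundling protein of the villin and gelsolin family found in tuft cells and sensory neurons, and lies on chromosome 10 from 127000709 to 127020994 on the plus strand. Avil had 191 and 282 normalized counts in G2 lines 157 and 236, against 69.7 and 108 in G0 lines 75 and 179. Both G2 lines exceeded both G0 lines. The means were 236 ± 64 in G2 and 88.7 ± 26.8 in G0 (SD, n = 2 each), a 2.66-fold difference whose counting interval is 2.25 to 3.20. The log2 fold change was 1.41 with a standard error of 0.32 (limma adjusted p = 0.0359). Without 1 library at a time the log2 fold change stayed between 1.10 and 1.72, and adjusted p was 0.238 without G2 replicate 1, 0.332 without G2 replicate 2, 0.224 without G0 replicate 1 and 0.236 without G0 replicate 2. The call was also lost without a filter on low values (adjusted p = 0.205) and without an intensity trend (0.122).

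The strand setting of the counting is not given in the sources used here, and Avil shares 165 of its 3398 exonic bases with Tsfm, a mitochondrial translation factor gene on the opposite strand. Tsfm stood at 193 and 228 normalized counts in G2 and 337 and 360 in G0, the opposite direction to Avil (log2 fold change -0.73, limma adjusted p = 0.0590). Ctdsp2, a phosphatase gene on the same strand that ends 733 bases before Avil, stood at 4612 and 5176 in G2 and 3927 and 3976 in G0 (log2 fold change 0.31, adjusted p = 0.195). The part of either neighbour in the Avil counts was not tested.

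Dclk1 encodes a microtubule-associated kinase of the doublecortin family and is widely used as a tuft cell marker in the mouse intestine. It lies on chromosome 3 from 55242364 to 55539068 and had 83.7 and 146 normalized counts in G2 lines 157 and 236, against 73.6 and 42.7 in G0 lines 75 and 179. The groups did not overlap, but the lower G2 line and the higher G0 line were close. The mean was 115 ± 44 in G2 and 58.2 ± 21.9 in G0, 1.97-fold higher in G2, and Dclk1 did not pass (log2 fold change 0.97, SE 0.40, limma adjusted p = 0.179), with a 95% interval of 0.02 to 1.91. The ratio was 2.50 without G2 replicate 1, 1.44 without G2 replicate 2, 2.69 without G0 replicate 1 and 1.56 without G0 replicate 2. Of its 15296 exonic bases, 87 and 27 are shared with Gm42609 and Gm21954 on the opposite strand. RefSeq gives the gene 2 starts, and the table holds 1 row for both.

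Per kb of exon the order of the members differed between the groups. In G2 Avil came first at 69.5 normalized counts per kb, followed by Dclk1 at 7.50, Alox5 at 3.53, Sh2d6 at 2.94 and Alox5ap at 1.04. In G0 Alox5 came first at 72.6 per kb, followed by Avil at 26.1, Alox5ap at 3.90 and Dclk1 at 3.80, with every other member below 0.2. Avil lay apart from the next member in both groups, at 56.1 and 82.8 per kb in the G2 lines and 20.5 and 31.7 in the G0 lines. Alox5 and Sh2d6 were not separated in G2 (5.40 and 1.67 against 2.98 and 2.89 per kb), nor were Alox5ap and Dclk1 in G0. Lines within a group did not rank the same way for each member: of the G2 lines, 236 had more Avil and Dclk1 and less Alox5 than 157, and of the G0 lines, 179 had more Avil and Alox5 and less Dclk1 than 75.

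The other genes of leukotriene synthesis moved in both directions. Of 14 genes of this list, written from textbook knowledge without Alox5 and Alox5ap, 12 had a row and 7 were tested, with a median log2 fold change of -0.18. Of these 7, 1 rose and 1 fell, against 10.5% of all genes tested that passed in either direction. Pla2g4a, the cytosolic phospholipase A2 that frees arachidonic acid, fell to 410 and 485 normalized counts in G2, against 883 and 790 in G0 (log2 fold change -0.90, SE 0.16, limma adjusted p = 0.0181). Ltc4s, the synthase that joins glutathione to leukotriene A4 and a tuft cell marker, rose to 84.7 and 61.6 in G2, against 9.82 and 16.3 in G0, a 5.61-fold difference (log2 fold change 2.42, SE 0.41, adjusted p = 0.0144). Both enzymes had groups that did not overlap, as did 57.8% of all genes tested. The enzyme after Alox5 was thus higher where Alox5 was lower. Mgst2, another leukotriene C4 synthase, had 20.2 and 19.5 in G2 and 4.91 and 12.2 in G0 without passing (adjusted p = 0.202). Lta4h, the hydrolase that makes leukotriene B4, stood at 2433 ± 129 in G2 and 2345 ± 231 in G0 (adjusted p = 0.828). The leukotriene B4 receptor gene Ltb4r1 had 0 counts in both G2 lines, against 8 and 1 in G0 (adjusted p = 0.216), and the cysteinyl leukotriene receptor gene Cysltr1 had 0 counts throughout.

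**Figure D2:**
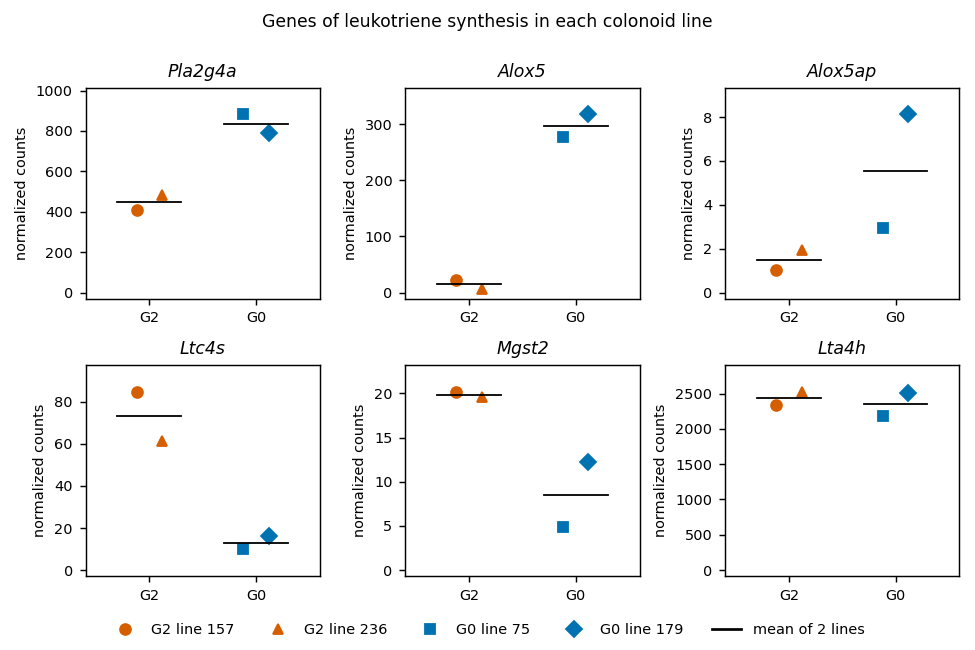
Normalized counts (vertical axes, including 0 and scaled per gene) of 6 genes of leukotriene synthesis in each library, G2 in orange left of G0 in blue, black bars at the means. Pla2g4a and Alox5 are lower in both G2 lines, Ltc4s is higher in both, and the Lta4h values of the groups overlap.

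The relatives of the members also moved in both directions. Of 28 paralogs of the members 21 were tested, with a median log2 fold change of 0.01. Of the 21, 2 rose and 2 fell, against 10.5% of all genes tested that passed in either direction. Of these 4, 3 belong to the family of Avil. Vil1, villin of the absorptive brush border, fell to 1731 and 787 normalized counts in G2 lines 157 and 236, against 4734 and 6383 in G0 (log2 fold change -2.23, SE 0.35, limma adjusted p = 0.0103). Gsn, gelsolin, rose 2.40-fold to 2785 ± 212 in G2, against 1161 ± 84 in G0 (adjusted p = 0.00288). Scin, the related severing protein scinderin, rose to 79.7 and 29.3 in G2, against 7.86 and 6.09 in G0 (adjusted p = 0.0303). Capg, of the same family, had 1130 and 932 in G2, against 1381 and 2368 in G0, without passing (adjusted p = 0.0931). Avil made up 1.90% and 3.16% of the family's 8 genes per kb in G2 and 0.642% and 0.729% in G0, while Vil1 made up 16.5% and 8.46% in G2 and 41.7% and 41.3% in G0. The other was Trpm6, a magnesium channel gene related to Trpm5, which fell to 295 and 576 in G2, against 995 and 1079 in G0 (adjusted p = 0.0354). The Trpm6 call was lost with either other scaling (adjusted p = 0.05015 and 0.05111) and the Scin call on the deposited scale (0.0533). Among relatives of the undetected members, Plcb3 stood at 2583 ± 345 in G2 and 3266 ± 562 in G0 and the ubiquitous POU factor gene Pou2f1 at 560 ± 95 and 466 ± 98, so isoforms outside the tuft list were present without passing (adjusted p = 0.260 and 0.449).

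**Figure D3:**
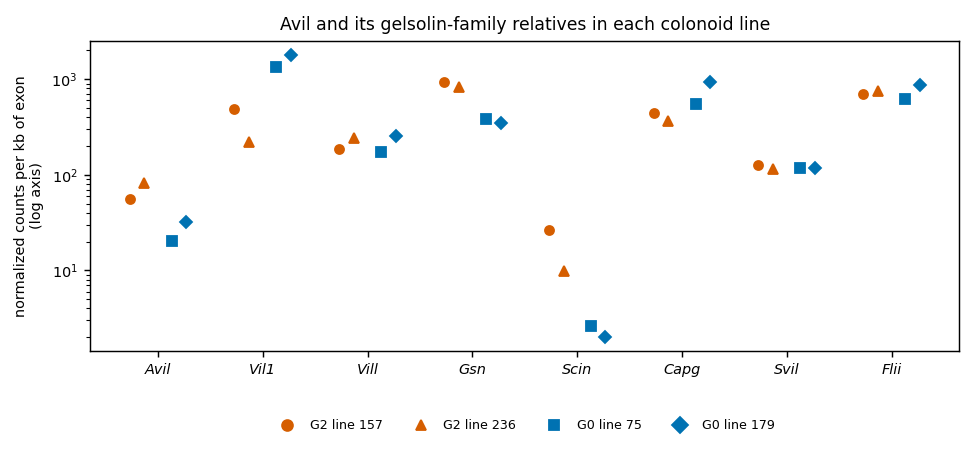
Normalized counts per kb of exon (vertical log axis) of Avil and 7 relatives in each library, with G2 lines in orange left of G0 lines in blue. Avil, Gsn and Scin are higher in both G2 lines, and Vil1 and Capg are lower in both.

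Further tuft cell genes gave no common direction. Of 9 transcription factor genes tied to tuft fate 6 were tested, with a median log2 fold change of 0.32. Of the 6, 1 rose and 0 fell, against 10.5% of all genes tested that passed in either direction. Sox4, reported to drive tuft cell formation in the mouse, stood at 3062 and 3709 normalized counts in G2, against 2359 and 1812 in G0, at the edge of the threshold (log2 fold change 0.70, adjusted p = 0.04997). That call was lost with a pseudocount of 0.5, without a filter on low values, with either other scaling, on the deposited scale and without an intensity trend (adjusted p = 0.0520 to 0.227). Without the trend Etv1 was the gene of the list that passed, and it was lower in G2 (adjusted p = 0.0360). Etv1 had 3.97 ± 0.09 in G2 and 14.9 ± 2.5 in G0 (adjusted p = 0.0888), and Sox9 5342 ± 73 in G2 and 4189 ± 8 in G0 (adjusted p = 0.130).

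Of 14 taste-type signalling genes 7 had a row and 5 were tested, with a median of -0.26. Plcg2, a phospholipase C of the gamma class, rose 1.76-fold to 663 ± 58 in G2, against 377 ± 51 in G0 (adjusted p = 0.0318). It was the 1 gene of the list that passed, against 10.5% of all genes tested. Other genes of the list were present without passing. Gng13 had 23.2 and 31.3 normalized counts in G2 and 24.5 and 51.8 in G0 (adjusted p = 0.623). Itpr3 stood at 3153 ± 6.5 in G2 and 3812 ± 731 in G0 (adjusted p = 0.346), and Tas1r3 at 6.92 ± 2.65 and 11.0 ± 1.7 (adjusted p = 0.485). Gustducin (Gnat3), the succinate receptor gene Sucnr1 and Rgs13 were among 7 genes with no row in the expression table. Of 10 genes of the circuit between tuft cells and type 2 innate lymphoid cells 7 were tested, with a median of -0.10. Of the 7, 0 passed in limma and 0 had an unadjusted p under 0.05. Over all 13981 genes tested, 10.5% passed and 3743 had an unadjusted p under 0.05. Il17rb, the receptor for interleukin 25, had 1 and 2 counts in G2 and 0 in both G0 lines. Il25 had no row.

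The longest list held 31 other tuft cell markers, of which 28 had a row and 17 were tested. The 17 had a median log2 fold change of 0.17. Of these 3 rose and 1 fell, against 10.5% of all genes tested that passed in either direction. The genes that moved are also expressed outside tuft cells. Cd24a, a surface glycoprotein, rose 2.64-fold to 20771 ± 1638 in G2, against 7878 ± 1935 in G0 (adjusted p = 0.00733). Nebl, an actin-binding nebulin relative, rose to 1121 and 798 in G2, against 69.7 and 48.8 in G0 (adjusted p = 0.000475), and Skap2, an adaptor protein, rose 1.69-fold (adjusted p = 0.0246). Plac8 fell to 257 and 175 in G2, against 2471 and 3632 in G0 (adjusted p = 0.000475). Irag2, a more restricted marker, was among 4 genes of the list with 0 counts in all libraries. Fyb1 had 2 and 8 counts in G2 and 0 in both G0 lines, without passing (adjusted p = 0.131). Matk had 4 and 5 counts in G2 and 2 in each G0 line (adjusted p = 0.423). Of the 17 tested, 6 had both G2 lines above both G0 lines, 4 had them below and 7 overlapped. Over all genes tested, 29.2% were above and 28.6% below. Ptgs1, the tuft cell cyclooxygenase gene, had 1826 ± 57 in G2 and 2296 ± 80 in G0 and did not pass (adjusted p = 0.152).

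**Figure D4:**
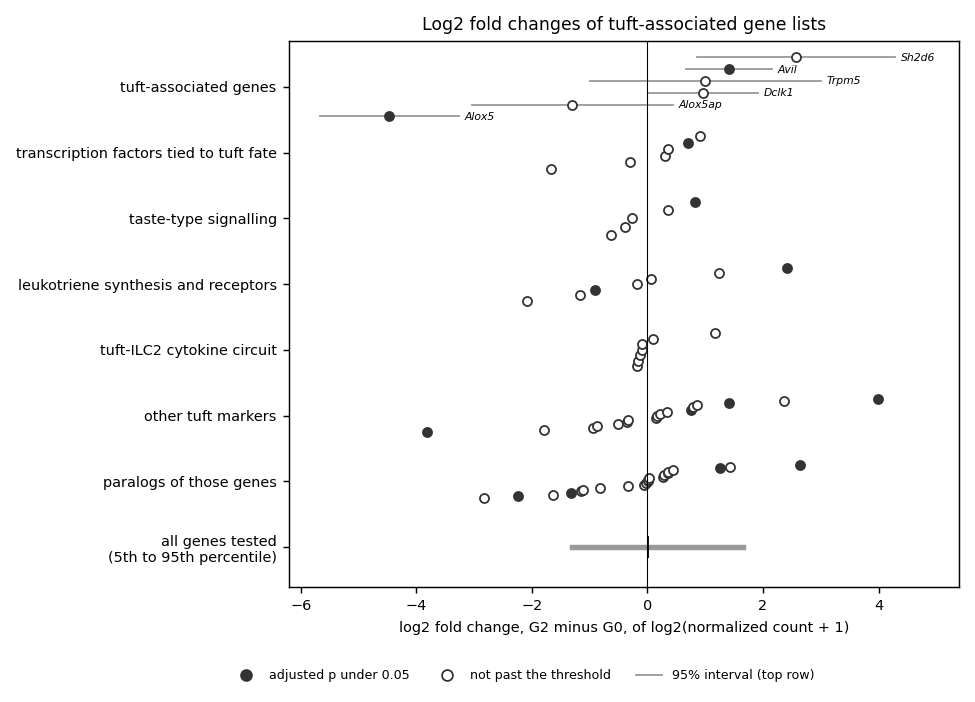
Log2 fold changes (horizontal axis, G2 minus G0, of log2(normalized count + 1)) of the tested genes of each list, filled where limma adjusted p was under 0.05, with 95% intervals for the tuft-associated members in the top row and the 5th to 95th percentile of all 13981 tested genes (-1.31 to 1.65, median 0.01) at the bottom. Alox5 lies far to the left and filled points occur on both sides of 0.

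The labelled tissue was checked against its markers. The epithelial genes Epcam, Cdh1, Krt8, Krt18 and Krt19 were in every library. Epcam stood at 6844 and 8669 normalized counts in G2 and 5995 and 6994 in G0. Cdh1 was higher in G2 (log2 fold change 0.85, limma adjusted p = 0.0171). Cdx1, also on the list, was low in every library, at 8.07 and 1.95 in G2 and 2.95 and 7.11 in G0. Fibroblast and endothelial markers summed to 9.08 and 12.7 in G2 and 5.89 and 4.06 in G0. The intestinal factor Cdx2 fell to 270 and 187 in G2, against 2395 and 3199 in G0 (limma adjusted p = 0.00043), in the same direction as Alox5 and Vil1, and the part of this shift in the results on Alox5 and Avil was not tested. The 9 goblet markers summed to 353 and 210 in G2 and 181 and 266 in G0, with Atoh1 at 0 in all libraries, and the 9 enteroendocrine markers with a row to 425 and 181 in G2 and 13.7 and 9.14 in G0, where Tac1 made up most of the G2 sums and Chgb and Neurod1 were at 0 throughout. The 7 absorptive markers summed to 4372 and 515 in G2 and 228 and 395 in G0, where Car1, a carbonic anhydrase gene, made up most of the G2 sums. Without Car1 they summed to 353 and 6.84 in G2 and 190 and 288 in G0, and the groups overlapped.

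The genes whose levels over the 4 libraries were most like those of Alox5 and Avil were found by the Euclidean distance between log2 profiles, each centred on its own mean, among 11720 named genes with a mean of at least 10. For Alox5 they were Aldh1a1 (distance 0.290), a retinal dehydrogenase gene at 433 and 168 normalized counts in G2 and 6753 and 6198 in G0, then Pcsk5 (0.327), a proprotein convertase gene, and Isx (0.545), an intestinal homeobox gene. For Avil they included Ptpro (distance 0.0734), a receptor phosphatase gene at 81.7 and 125 in G2 and 28.5 and 46.7 in G0, and Cyba (0.120), a subunit of NADPH oxidases. With 4 libraries the distance describes these profiles alone.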

How the data were processed

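Per the labels' protocols, RNA came from an RNeasy kit and libraries from BGI. DESeq2 1.32.0, StringTie 2.1.1, HISAT2 2.1.0, bcl2fastq 2.20.0, R 3.5.2 and the build mm10 are listed in the submitters' processing notes. How strand was counted, and with which annotation, is not stated there. The authors deposited log2 values whose lowest value, 6.508, is shared by all libraries, the form of a variance-stabilizing transformation. Its inversion gave normalized counts, and 1 factor per library (0.984 to 1.02) turned 100% of values into whole numbers within 0.001. These can be rounded estimates, so limma 3.58.1 in R 4.3.3 was used, with an intensity trend, a pseudocount of 1 and a minimum mean of 1 normalized count. The plan had not foreseen this scale. Log2 fold changes understate those of low genes. Steps were tested on simulated data.

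The members and lists were chosen with earlier results of these data known. Named were all members, up to 4 genes with the smallest p of each further list, 3 genes most like Alox5 and Avil, Tert and the Y-linked genes. Others were chosen after their values were seen. Some genes that this rule named are not reported here. Positions and exon lengths are from GENCODE M21 (GRCm38), and promoters from RefSeq.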

Additional observations from a re-analysis of the deposited data

How the results depend on the processing

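No member's fold change reversed. The transcription factor list did without an intensity trend, with 1 gene past the threshold as before, but Etv1, lower in G2, in place of Sox4, higher in G2. Without a filter on low values 1 member (Sh2d6) passed, at a log2 fold change of 2.576, while Alox5 (-4.467) and Avil (1.408) missed the threshold, and the lists of transcription factors, taste-type signalling, leukotriene genes, other tuft markers and paralogs had 0, 0, 0, 0 and 0 genes past it. Without an intensity trend Avil (1.408) missed it, Sh2d6 (2.576) passed, and taste-type signalling, leukotriene genes, other tuft markers and paralogs had 0, 1, 2 and 1. Without the filter 225 of 16857 genes passed in all, against 1467 of 13981. The transcription factor count was 0 with a pseudocount of 0.5, with upper quartile scaling, with library total scaling and on the deposited scale. In the fit with the replicate number as a block Dclk1 passed (0.965, adjusted p = 0.0481) and 9 paralogs did, and the count over all genes was 3503 against 1467. The deviations of equally numbered lines had a correlation of 0.174 over 12080 genes, and the lines share only a number, so this fit is a check. The causes were not tested.

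Leaving out 1 library gave 0 to 0 members past the threshold and 0 to 0 genes of every list, with log2 fold changes of -5.249 to -3.685 for Alox5, -1.905 to -0.696 for Alox5ap, 1.098 to 1.718 for Avil, 0.569 to 1.361 for Dclk1, 0.219 to 1.786 for Trpm5 and 2.558 to 2.595 for Sh2d6. List medians near 0 changed sign: taste-type signalling had 0.13 without G0 replicate 2 and 0.05 at a minimum mean of 10, leukotriene genes 0.06 at that minimum, the cytokine circuit 0.07 without G0 replicate 2, other tuft markers -0.01 without G2 replicate 2, and paralogs -0.02 to -0.01 in 4 settings. A minimum mean of 10 leaves no value for Alox5ap, Trpm5 and Sh2d6, and Pou2f3, Gfi1b and Plcb2 were tested only without a filter. Depth limits the 6 members whose highest library had under 10 counts.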
